A study of Mus musculus with 6 samples.

Results

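The genes of the epidermal growth factor (EGF) receptor family were examined in the inner enamel epithelium (IEE), the epithelial layer of the tooth germ that becomes the enamel-forming ameloblasts. The set held 10 genes, found by symbol among the 18152 genes of the table. They were the receptors Egfr, Erbb2 and Erbb3, the ligands Areg, Ereg, Hbegf, Tgfa, Btc and Nrg1, and the receptor inhibitor Errfi1. RNA-seq libraries had been made from the IEE of the mandibular first molar at E18.5, cut out of head sections by laser capture microdissection. There were 3 libraries of Kdf1 fl/fl mice, which the sample labels call control or WT. The other 3, labelled cKO, were of K14-Cre;Kdf1 fl/fl mice. Both groups carry the floxed Kdf1 allele, have a C57BL/6J background, and the labels name no agent given to either. In the cKO group a Cre recombinase driven by the keratin 14 promoter acts in all K14-expressing epithelium, skin and oral mucosa included. The comparison asked how the family's transcripts differed once epithelial Kdf1 was lost.

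Receptors of this family are tyrosine kinases that pair on the cell surface after a ligand binds and then feed the RAS/ERK and PI3K/AKT pathways. EGFR binds AREG, EREG, HBEGF, TGFA and BTC, whereas NRG1 binds ERBB3. ERBB2 has no known ligand of its own and serves as the partner of the other receptors, and ERBB3 has little kinase activity but binds PI3K well. ERRFI1, also called MIG6, is induced by EGFR signalling and blocks the kinase domain of the receptors. The ligands are made as membrane proteins and are released by proteases, and in skin they drive keratinocyte growth.

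Sequences upstream of 3 of these genes are shown because they belong to the ligand with the largest fold difference, to the inhibitor and to Egfr, whose share of the receptor transcripts did not overlap between groups. RefSeq promoter windows of build GRCm38.p6, with 250 bases before and 50 after the start of each gene, were matched for 6 of the 10 genes. The stretches are the 120 bases before the start on the plus strand, at chr5:91139479-91139598 for Areg, chr4:150854950-150855069 for Errfi1 and chr11:16752083-16752202 for Egfr. Of the 2 starts listed for Errfi1, that with matches is shown. Capitals mark the cyclic AMP response element TGACGTCA and the TATA motif TATAAA.
Areg: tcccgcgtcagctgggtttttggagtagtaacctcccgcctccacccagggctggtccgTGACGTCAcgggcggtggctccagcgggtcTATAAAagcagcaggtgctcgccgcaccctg
Errfi1: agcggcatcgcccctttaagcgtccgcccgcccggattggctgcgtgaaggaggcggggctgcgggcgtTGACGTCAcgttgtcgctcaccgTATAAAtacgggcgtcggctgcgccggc
Egfr: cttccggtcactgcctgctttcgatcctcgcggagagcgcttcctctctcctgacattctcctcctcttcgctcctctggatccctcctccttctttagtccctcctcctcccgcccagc

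Areg and Errfi1 held both motifs, with TGACGTCA starting 61 bases before the start of Areg and 51 bases before that of Errfi1. TATAAA followed at 31 and 28 bases before the start. Searched on both strands, TGACGTCA was present in 1.79% and TATAAA in 13.6% of the 32851 promoter windows, and both were present in 56 windows, or 0.170%. The windows of Egfr, Erbb2, Btc and Tgfa held neither. These matches describe the letters of the window only.

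Library totals lay between 14713918 and 16675133 counts, and 14131 genes passed the filter on low counts. Kdf1 had 836, 731 and 835 reads in the control libraries and 0, 1 and 0 in the cKO libraries. Levels are given as CPM, counts scaled by library total and TMM factor. Markers of dental epithelium (9 genes, among them Krt14 and Epcam) summed to between 8735 and 13943 CPM in control and between 5373 and 8438 CPM in cKO libraries, and none of them was at 0. Amelx, the main enamel matrix gene, ran from 1244 to 10691 CPM among the control libraries and from 2.59 to 223 CPM in the other group. The 9 macrophage markers summed to 33.2 to 73.9 and 63.6 to 220 CPM, the 8 endothelium markers to 269 to 336 and 319 to 896 CPM, and the 8 neutrophil markers to 3.33 to 5.65 and 30.4 to 77.2 CPM. Of the neutrophil markers, 5 of the 6 tested were past the criterion of the study upwards in edgeR, beside 0.142% of all genes tested. The 9 dental papilla markers summed to 3927 to 21065 and 11760 to 13016 CPM, a sum led by the collagen genes Col1a1 and Col1a2, whose groups overlapped. Of the 9, 5 were higher in every cKO library than in any control library, beside 14.5% of all genes tested. Among them were Twist1 (8.97 to 16.5 and 41.8 to 75.8 CPM), Prrx1 (15.5 to 40.3 and 85.9 to 266 CPM) and Col3a1 (202 to 719 and 732 to 3270 CPM). An unadjusted p of 0.05 or less upwards in edgeR was found for 6, beside 13% of all genes tested. Replicate 3 of the control group had 25.9 CPM of the oral mucosa keratin gene Krt4 and 36.9 CPM of Krt13, and no other library had more than 0.363 CPM of either. In bulk tissue, fewer cells of a type and less RNA per cell cannot be told apart.

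None of the 10 genes passed the study's criterion, which asks for a log2 fold change of 1 or more in either direction and an adjusted p (Benjamini-Hochberg) of 0.05 or less. Of the 10, 8 passed the filter and were tested by the quasi-likelihood method of edgeR, which called 61 of the 14131 genes, or 0.432%. At an unadjusted p of 0.05 or less there were 0 of the 8 in edgeR, against 24.5% of all genes (13% higher and 11.6% lower in cKO), and 0 of the 8 in DESeq2, against 26%. With the replicate number as a block there were 2 of the 8, Egfr and Erbb2, against 29.3% of all genes. The labels do not say that libraries of the same number belong together, and the pairs were inferred from these data. None of the 8 passed the criterion with the block, against 6.09% of all genes (4.16% higher and 1.92% lower), or in DESeq2, against 6.94% (5.05% higher and 1.88% lower). By the adjusted p alone the members again numbered 0, against 9.87% of all genes with the block and 12.6% in DESeq2. The groups did not overlap in 1 of the 8, Btc, against 30.7% of all genes tested in either direction. Btc was lower in cKO mice, and 16.2% of all genes tested were lower without overlap. Areg and Ereg were too low to be tested with the filter, and their groups did not overlap either. Both were lower in cKO mice, as were 13.3% of the 18066 genes with any count, without overlap.

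**Figure D1:**
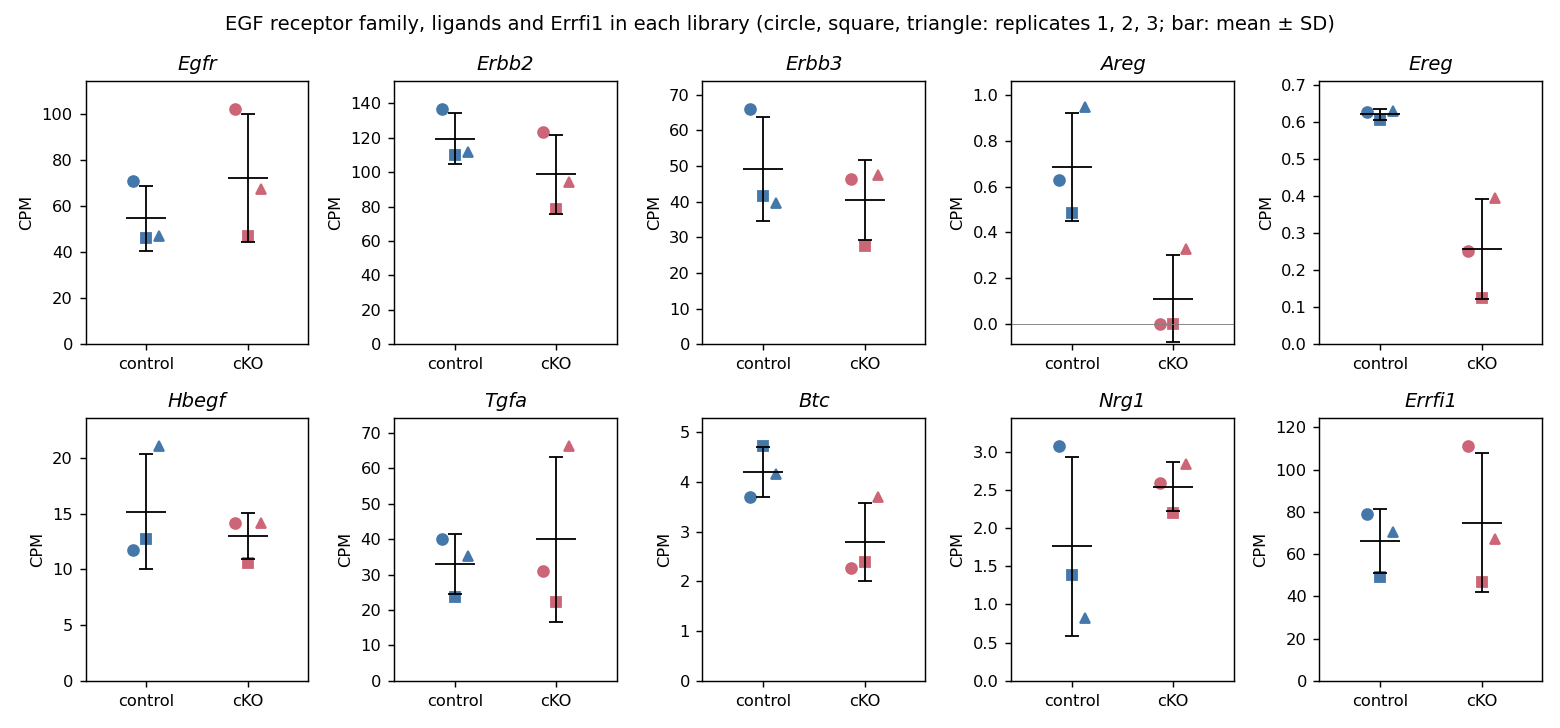
Level of each of the 10 genes (y axis, CPM) in the 3 control libraries (blue) and the 3 cKO libraries (red), with the mean and SD as bars. The groups separate for Areg, Ereg and Btc, at levels under 5 CPM, and overlap for the other 7 genes.

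On the TPM scale, which takes gene length into account, Erbb2 and Errfi1 were the most abundant in control IEE, with 43.3 ± 6.06 and 40.5 ± 8.31 TPM (SD, n = 3). Their difference was smaller than the spread between replicates. Egfr, Erbb3, Tgfa and Hbegf formed the next step, with 16.8 ± 4.60, 14.7 ± 4.57, 13.4 ± 2.86 and 12.2 ± 3.36 TPM, and neighbours in this order did not differ beyond their spread. Btc (2.77 ± 0.465 TPM), Areg (1.22 ± 0.343 TPM), Nrg1 (0.563 ± 0.310 TPM) and Ereg (0.273 ± 0.0115 TPM) lay below them. In cKO IEE the same 2 genes led, with 48.9 ± 24.7 TPM for Errfi1 and 37.6 ± 11.0 TPM for Erbb2. The ligands were led by Tgfa (16.6 ± 8.64 TPM) and Hbegf (11.0 ± 2.01 TPM), and Areg (0.193 ± 0.335 TPM) was no longer above Nrg1 (0.817 ± 0.150 TPM).

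Among the receptors, Egfr had the higher mean in cKO mice, and Erbb2 and Erbb3 the lower. Egfr (gene identifier 13649) was at 71.1, 45.9 and 47.0 CPM in control replicates 1, 2 and 3, and at 102, 47.1 and 67.5 CPM in the cKO replicates. Replicate 1 was the highest of its group in both genotypes, and the groups overlapped. The log2 fold change was 0.40 (SE 0.30), with a 95% interval of -0.31 to 1.11 and an adjusted p of 0.449 (edgeR), so a change of up to 2.16-fold upwards lay within the interval. The block left 0.36 (SE 0.14) with an adjusted p of 0.150 (edgeR), and each cKO library was above the control library of the same number. With 1 library left out, the log2 fold change lay between 0.09 (without cKO replicate 1) and 0.67 (without cKO replicate 2). Replicate 1 of the cKO group also had the highest sums of macrophage, neutrophil and endothelium markers and the highest Twist1, Prrx1, Col3a1, Msx1 and Vim. The other dental papilla markers, Lum, Pdgfra, Col1a1 and Col1a2, were highest in replicate 2 of the cKO or control group. The part of such cells in the level of Egfr was not tested.

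Erbb2 (13866), the shared partner receptor, was at 137, 110 and 112 CPM in control and at 123, 78.5 and 94.2 CPM in cKO libraries. It was lower than its same-numbered counterpart in 3 of 3 pairs, although cKO replicate 1 exceeded 2 of the control libraries. Its log2 fold change was -0.27 (SE 0.18, 95% interval -0.71 to 0.16), with an adjusted p of 0.397, and -0.29 (SE 0.12) with an adjusted p of 0.163 under the block (edgeR). It was -0.10 without cKO replicate 2 and -0.45 without cKO replicate 1.

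Erbb3 (13867), the receptor of NRG1, was at 65.9, 41.6 and 39.7 CPM in control and at 46.3, 27.5 and 47.4 CPM in cKO libraries. The groups overlapped, and pair 3 ran against the other 2 pairs. The log2 fold change was -0.28 (SE 0.27, 95% interval -0.92 to 0.37, adjusted p = 0.564 in edgeR), and without control replicate 1 it was 0.00. Erbb3 is also a gene of Schwann cells, whose defining marker Sox10 was at 0.0605 to 0.0631 CPM in control and at 0.503 to 5.82 CPM in cKO libraries. The 8 Schwann cell and nerve markers summed to 182 to 392 and 124 to 198 CPM, and their part in Erbb3 was not tested.

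**Figure D2:**
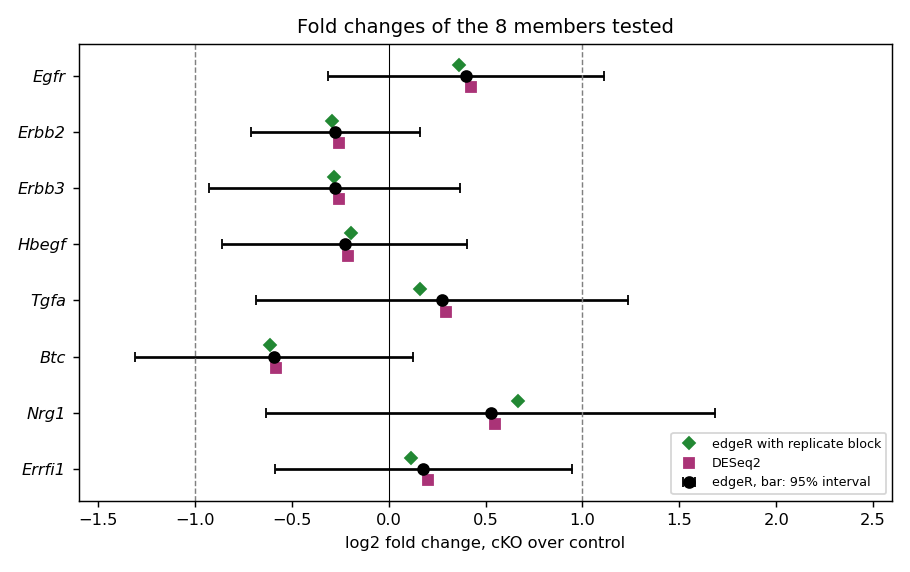
Log2 fold change (x axis, cKO over control) of the 8 genes tested, with the 95% interval of edgeR and the estimates of edgeR with the replicate block and of DESeq2. Every interval includes 0, and the dashed lines mark a log2 fold change of 1 in each direction.

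The shares of the receptors in their summed transcripts were separate for Egfr. Taken as a share of the summed TPM of Egfr, Erbb2 and Erbb3, Egfr made up 24.1%, 21.2% and 21.6% in control libraries and 34.8%, 28.2% and 30.1% in cKO libraries. The 2 sets of shares did not overlap, with means of 22.3% ± 1.55 and 31.1% ± 3.37 (SD, n = 3). Erbb2 held 58.3% ± 3.50 and 51.6% ± 3.51, and Erbb3 19.4% ± 2.02 and 17.3% ± 2.75.

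The ratio of Egfr to Erbb2 TPM does not depend on how libraries are scaled. It was 0.443, 0.352 and 0.357 in control and 0.699, 0.508 and 0.610 in cKO libraries, so the groups were apart. The ratio of Egfr to Erbb3 was 1.11, 1.13 and 1.22 against 2.26, 1.75 and 1.47, again apart, whereas that of Erbb3 to Erbb2 overlapped (0.293 to 0.398 and 0.290 to 0.415). Within groups, Egfr and Erbb2 moved together, and the deviations of their log2 CPM from the group means had a Pearson r of 0.995 over the 6 libraries. These ratios were formed after the values had been seen and carry no test. The share of Egfr follows from its ratios to Erbb2 and Erbb3, so share and ratios are not separate results. Single genes did not overlap in 30.7% of those tested, and how many other pairs of genes have ratios apart was not counted. The part of the cell mix in the ratios was not tested. The summed receptor level was 74.8 ± 15.2 TPM in control and 73.6 ± 24.5 TPM in cKO mice, a difference below the spread.

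**Figure D3:**
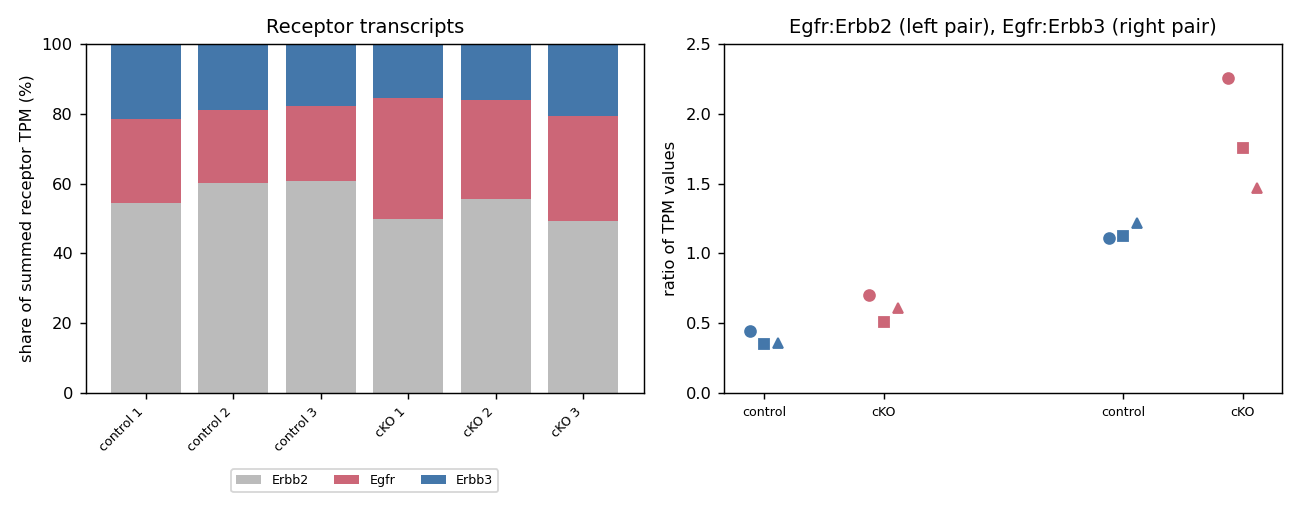
Left, share of Egfr, Erbb2 and Erbb3 in their summed TPM (y axis, %) in each library. Right, ratios of Egfr to Erbb2 and of Egfr to Erbb3 TPM, where all 3 cKO libraries (red) lie above all 3 control libraries (blue).

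Across the 6 libraries, the genes closest to each receptor were sought among 11597 other genes with a mean of at least 5 CPM, by the Pearson correlation of log2 CPM. Egfr was followed most closely by Junb (r = 0.992), a transcription factor gene of the AP-1 family, by Sos2 (0.980), an activator of RAS, and by the receptor phosphatase gene Ptprk (0.975). Erbb2 was followed by Klhl17 (0.988), Eps15l1 (0.986) and Aff1 (0.980), and Erbb3 by Ktn1 (0.985), Plagl2 (0.981) and Prkcd (0.981). These libraries share 2 groups and, by number, 3 pairs, and 6 points over this many genes yield high values readily. Among the 8 genes tested, with the group difference left in, r was 0.887 between Egfr and Errfi1, the highest of the pairs, and 0.504 between Egfr and Erbb2.

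Among the 6 ligands of the set, those whose groups did not overlap were neighbours in the genome. Ereg, Areg and Btc, which lie next to each other on chromosome 5 after Epgn, were each lower in all 3 cKO libraries than in any control library, whereas Tgfa, Hbegf and Nrg1 overlapped. Areg (11839), which encodes amphiregulin, a growth factor of keratinocytes, had 10, 8 and 15 reads in the control libraries. In the cKO libraries it had 0, 0 and 5 reads. The means were 0.686 ± 0.237 and 0.110 ± 0.190 CPM (SD, n = 3), while a count of 0 allows 3 counts, or 0.182 to 0.198 CPM in these libraries. In the fit without the filter on low counts (18066 genes), the log2 fold change was -2.60 (SE 1.04) with an unadjusted p of 0.0358 and an adjusted p of 0.202 in edgeR. Lower values with an unadjusted p of 0.05 or less were found for 9.97% of the 18066 genes, and at this depth the difference did not pass the adjustment. It was -2.29 without control replicate 3, the library with Krt4 and Krt13. Without cKO replicate 3, which held all 5 reads, the other cKO libraries were at 0. Set against 3 counts per library, the control mean was 3.63-fold higher. That value takes the control mean of 0.686 CPM as exact and leaves out the only cKO library with reads, so it is no lower limit of the difference.

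Ereg (13874), the gene of epiregulin, was as low, with 10 reads in each control library and 4, 2 and 6 in the cKO libraries. Its log2 fold change was -1.26 (SE 0.57, unadjusted p = 0.0561, adjusted p = 0.248, edgeR without the filter). Groups without overlap and lower in cKO mice were found in 13.3% of the 18066 genes with any count. Btc (12223), which encodes betacellulin, was at 3.70, 4.72 and 4.17 CPM in control and 2.28, 2.39 and 3.69 CPM in cKO libraries. The closest values of the groups, 3.70 and 3.69 CPM, nearly met. Its log2 fold change was -0.59 (SE 0.31, 95% interval -1.31 to 0.13), the lowest p of the 8 genes tested (0.0926, adjusted 0.275, edgeR).

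The protein-coding neighbours of the ligand genes were read from the RefSeq gene order of GRCm38.p6. Epgn, the gene of epigen and the first ligand gene of the row, had at most 2 reads in any library. In CPM it was higher in every cKO library than in any control library, opposite to Ereg, Areg and Btc. The closest values were 0.1258 and 0.1255 CPM, and Epgn had the same 2 reads in control replicates 1 and 2 as in each cKO library. Before it, Mthfd2l, a gene of mitochondrial folate metabolism, overlapped between groups (13.7 to 16.3 and 15.7 to 24.0 CPM). After Btc came Parm1, at 206, 152 and 187 CPM in control and 93.4, 81.7 and 108 CPM in cKO libraries. Every cKO library was below every control library, and the log2 fold change was -0.94 (SE 0.16) with an adjusted p of 0.0556 in edgeR. The adjusted p was 0.0104 with the replicate block and 3.58e-05 in DESeq2, and the fold change stayed under the criterion in both. The next gene, Rchy1, was at 65.7 ± 4.20 and 64.4 ± 10.4 CPM, and its estimate was -0.03 on the log2 scale (SE 0.14, adjusted p = 0.922 in edgeR). Farther out, Odaph was also lower in every cKO library, with 6 reads in each control library and 4, 3 and 3 in the cKO libraries. Cxcl1, on the other side, was higher in every cKO library (1, 4 and 2 against 12, 8 and 7 reads), and Cxcl2 had at most 5 reads in any library. These neighbours were looked up after the ligand values had been seen.

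**Figure D4:**
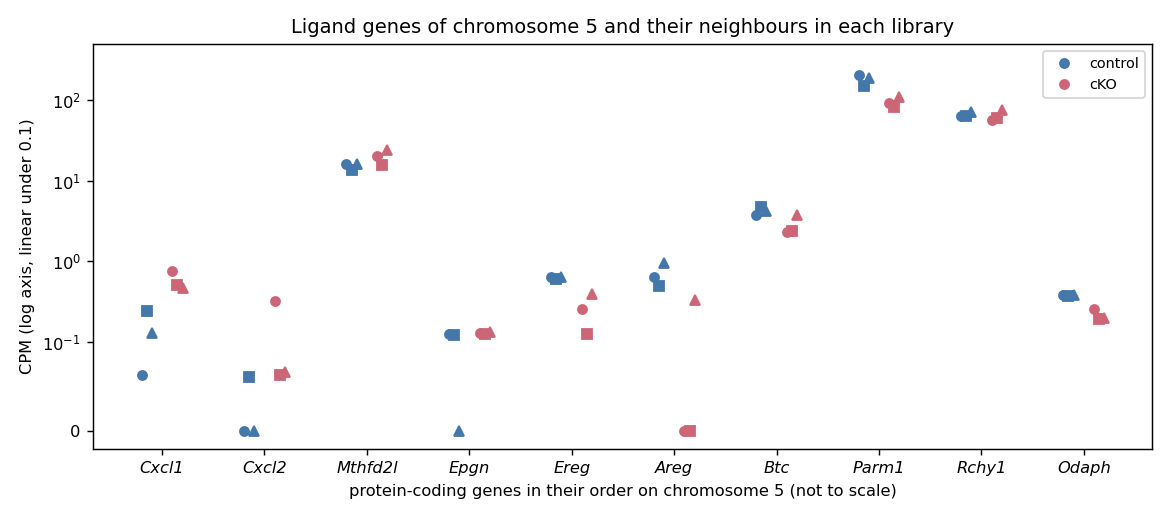
CPM in each library (y axis, log scale above 0.1) of the ligand genes Epgn, Ereg, Areg and Btc and of 3 neighbours on each side, in their order on chromosome 5. From Ereg to Parm1 each cKO library (red) lies below all control libraries (blue), as at Odaph, at Mthfd2l and Rchy1 the groups overlap, and at Cxcl1 the cKO libraries are higher.

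Among markers of keratinised epithelium, in which these ligands are known to be made, Krt6a and Krt1 were lower in every cKO library and the others overlapped. The 9 genes of that list in the table summed to 40.7 to 154 CPM in control and 15.1 to 21.1 CPM in cKO libraries, with most of the control sum from Krt6a (25.4 to 108 and 3.21 to 6.92 CPM) and, in control replicate 3, from Krt4 and Krt13 as well. Krt1 and Krt10 stood at 3.27 to 4.52 and 8.16 to 9.28 CPM in control, and at 2.02 to 2.70 and 5.31 to 8.70 CPM in cKO libraries. Lor was at 2.78 to 3.03 and 2.31 to 3.58 CPM (0.08 on the log2 scale in edgeR), and Sprr1a was at most 0.442 CPM in any library. The part of such cells in the ligand values was not tested.

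The more abundant ligands showed no group difference beyond their spread. Tgfa (21802), the gene of transforming growth factor alpha, was at 40.0, 23.5 and 35.4 CPM in control and 31.1, 22.4 and 66.3 CPM in cKO libraries. Only replicate 3 of the latter stood above the control range. The log2 fold change of 0.28 (SE 0.41, 95% interval -0.68 to 1.24, adjusted p = 0.711 in edgeR) became -0.28 without it.

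Hbegf (15200), the gene of heparin-binding EGF-like growth factor, was at 11.7, 12.8 and 21.1 CPM in control and 14.2, 10.6 and 14.2 CPM in cKO libraries. Its highest value came from control replicate 3, the library with Krt4 and Krt13. The log2 fold change of -0.23 (SE 0.27, 95% interval -0.86 to 0.41, adjusted p = 0.639 in edgeR) was 0.08 without that library. Nrg1 (211323), the gene of neuregulin 1, was at 3.07, 1.39 and 0.821 CPM in control and 2.59, 2.20 and 2.83 CPM in cKO libraries. The spread lay in the control group, with a coefficient of variation of 66.5% against 12.5%. The log2 fold change was 0.53 (SE 0.49, 95% interval -0.63 to 1.69) with an adjusted p of 0.544 in edgeR. It was 1.20 without control replicate 1 and 0.19 without control replicate 3.

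In the summed TPM of the 6 ligands, Tgfa and Hbegf made up 44.0% ± 7.73 and 39.9% ± 7.75 in control, and 52.2% ± 9.63 and 37.8% ± 9.17 in cKO libraries (SD, n = 3). Areg supplied 3.51% to 4.67% of it in control and 0% to 1.40% in cKO libraries. The sum itself was 30.4 ± 3.91 and 30.7 ± 10.4 TPM. The difference between these sums was below the spread between replicates.

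Errfi1 (74155), the feedback inhibitor, varied between libraries much as Egfr did. It was at 78.9, 49.3 and 70.3 CPM in control and 111, 46.6 and 66.9 CPM in cKO libraries, and the groups overlapped at both ends. The log2 fold change was 0.18 (SE 0.33, 95% interval -0.59 to 0.95, adjusted p = 0.766 in edgeR), 0.00 without control replicate 2 and -0.20 without cKO replicate 1. The ratio of Errfi1 to Egfr TPM was 2.22, 2.17 and 3.00 in control and 2.19, 1.99 and 1.98 in cKO libraries, also with overlap.

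Of 71 further genes of the pathway, in 5 lists, 66 were tested. None passed the criterion in edgeR, and 16 (8 higher and 8 lower) had an unadjusted p of 0.05 or less, beside 24.5% of all genes. DESeq2 called 3, Adam12, Timp3 and Gab2, and edgeR with the block called 1, Gab2, all higher in cKO mice. Of all genes, DESeq2 called 6.94% (5.05% higher) and edgeR with the block 6.09% (4.16% higher). The median log2 fold change of all genes tested was 0.00 (-0.00426).

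Of the other family members, 2 of 6 were tested. The ligand genes Egf and Nrg4 were at 3.98 ± 0.202 and 2.55 ± 0.600 CPM in control and 3.83 ± 1.24 and 2.88 ± 0.236 CPM in cKO mice, with log2 fold changes of -0.06 (SE 0.32) and 0.17 (SE 0.30), the latter between 0.04 (without control replicate 3) and 0.38 (without control replicate 1). Erbb4, the fourth receptor, had 2, 1 and 1 reads in the control and 6, 10 and 2 in the cKO libraries. In CPM it was higher in every cKO library than in any control library. Nrg2 and Nrg3, further neuregulin genes, had at most 9 reads in any library. Nrg3 had 4, 4 and 2 reads in the control and 6, 6 and 9 in the cKO libraries, also higher without overlap, and Nrg2 overlapped.

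In the list of ligand release (8 genes tested), 2 had an unadjusted p of 0.05 or less upwards and 1 downwards, with a median log2 fold change of 0.06. Over all genes tested, the shares at that threshold were 13% and 11.6%. Adam12, a metalloproteinase gene of mesenchymal cells that can release HBEGF, was at 10.3 ± 1.98 CPM in control and 48.0 ± 41.0 CPM in cKO mice. Its log2 fold change was 2.22 (SE 0.58, adjusted p = 0.0895 in edgeR, 0.0577 with the block and 0.000752 in DESeq2). Timp3, the gene of a matrix-bound inhibitor of ADAM17, was at 118 ± 20.3 and 297 ± 203 CPM, with 1.34 (SE 0.44, adjusted p = 0.133 in edgeR and 0.0153 in DESeq2). Rhbdf2, which encodes iRhom2, the carrier of ADAM17, had -0.40 (SE 0.17, adjusted p = 0.204 in edgeR), and -0.26 without cKO replicate 2. The sheddase genes Adam17 and Adam10 ranged from 69.0 to 87.5 and from 246 to 332 CPM in control libraries, and from 69.6 to 93.9 and from 253 to 268 CPM in cKO libraries. Adam12 and Timp3 were highest in cKO replicate 1, and without it their log2 fold changes were 1.27 and 0.63. The endothelium sum and the dental papilla markers Prrx1, Twist1, Col3a1, Msx1 and Vim were highest in that library too. The other papilla markers were not: Lum and Pdgfra were highest in cKO replicate 2, and Col1a1 and Col1a2 in control replicate 2. The part of such cells in both genes was not tested.

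Among the transducers (24 genes tested), 2 were past the unadjusted threshold upwards and 5 downwards, beside 13% and 11.6% of all genes, and the median was -0.03. The adaptor gene Gab2 was at 14.4 ± 5.19 and 34.0 ± 14.4 CPM, with overlap, and its estimate was 1.24 on the log2 scale (SE 0.38, adjusted p = 0.118 in edgeR, 0.0315 with the block and 0.0181 in DESeq2). Map2k1, the gene of the ERK kinase MEK1, had -0.38 (SE 0.11, adjusted p = 0.114 in edgeR), and Shc1, an adaptor of the receptors, 0.40 (SE 0.15, adjusted p = 0.159 in edgeR). Of the 24, 7 were lower and 2 higher in cKO mice without overlap of the groups, beside 16.2% and 14.5% of all genes tested.

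The negative regulators (18 genes tested) had the highest median of the 5 lists, 0.31, with 14 of 18 at a log2 fold change above 0, beside 49.5% of all genes. Of the 18, 4 were past the unadjusted threshold upwards and 1 downwards, beside 13% and 11.6% of all genes. The ubiquitin ligase gene Cblb was at 36.6, 36.3 and 34.9 CPM in control and 66.8, 49.5 and 73.4 CPM in cKO libraries. The groups were well apart, and its log2 fold change of 0.82 (SE 0.16) had an adjusted p of 0.0637 in edgeR, 0.0273 with the block and 0.000781 in DESeq2. Its relative Cbl, which marks the activated receptors for degradation, differed in the other direction, at 91.6, 91.9 and 88.7 against 70.4, 61.4 and 69.7 CPM. The estimate for Cbl was -0.43 on the log2 scale (SE 0.11, adjusted p = 0.0818 in edgeR, 0.0635 with the block and 0.0156 in DESeq2). Spred1, a RAS inhibitor gene, had 0.41 (SE 0.11, adjusted p = 0.0942 in edgeR and 0.0190 in DESeq2).

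Genes that respond to ERK (14 tested) had a median of 0.20, and 1 of them, Ccnd1, was past the unadjusted threshold, beside 24.5% of all genes. Ccnd1, which encodes cyclin D1, was at 633, 530 and 455 CPM in control and 326, 390 and 269 CPM in cKO libraries, so every cKO library was lower. Its log2 fold change was -0.72 (SE 0.19, adjusted p = 0.0896 in edgeR, 0.0348 with the block and 0.00935 in DESeq2). The early response genes Ier3 and Egr2 had 1.14 (SE 0.50, adjusted p = 0.212 in edgeR) and 1.01 (SE 0.56, adjusted p = 0.306 in edgeR). In both, replicate 1 of the cKO group was the highest library, with 43.6 and 3.22 CPM, and without it the log2 fold changes were 0.40 and 0.42.

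**Figure D5:**
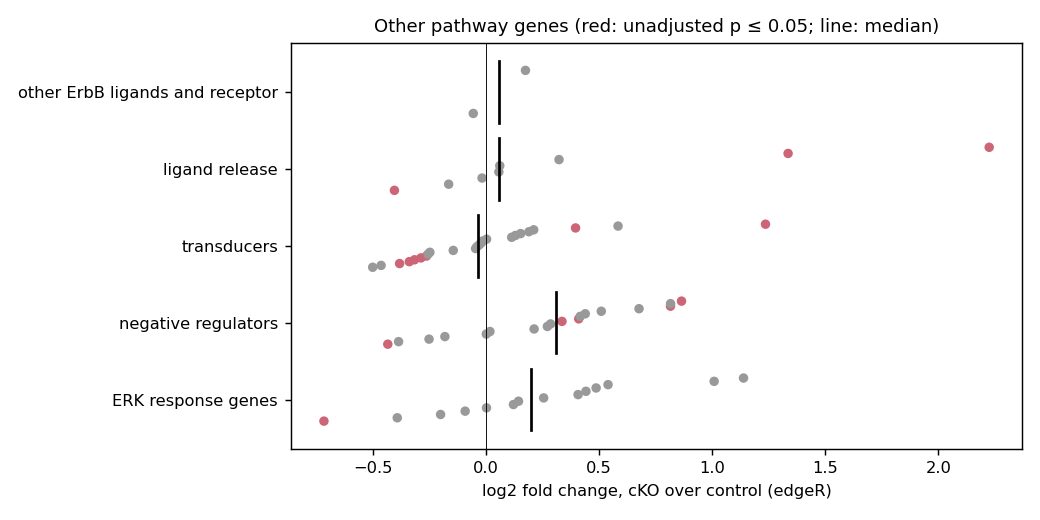
Log2 fold change in edgeR (x axis, cKO over control) of the 66 further pathway genes tested, in 5 lists. Red points have an unadjusted p of 0.05 or less and black lines are the medians, of which that of the negative regulators, 0.31, is the highest.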

How the data were processed

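RNA of the IEE was sequenced in 3 control and 3 cKO libraries, and 1 table of all libraries was used. The deposited estimated counts are reads assigned by the authors to each gene without normalisation, and 10.9% to 11.5% of them per library were not whole numbers, so they were rounded. The deposited TPM values are scaled by the authors for length and to an equal total, and served to set genes side by side. The deposited FPKM values of the authors were not used, nor were 6 columns of group means. The submitters' processing notes name BWA 0.7.12, Picard 2.6.0 and StringTie, and the genome build is not given in the sources used here. The labels call the libraries of each group biological replicates. Their litters and the number of animals in each library are not stated, so p-values measure the spread between these libraries.

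In R 4.3.3, edgeR 4.0.16 was used with filterByExpr, TMM factors and robust two-sided quasi-likelihood F-tests, and p-values were adjusted over all genes (Benjamini-Hochberg). The 95% intervals rest on the same fit. DESeq2 1.42.0, limma 3.58.1 and other scalings, filters and left-out libraries were alternatives. A count of 0 allows 3 counts, which covers counting error only. Same-numbered libraries deviated together from their group means (r = 0.135, 0.324 and 0.499 across genes), so the numbers were read as pairs and a replicate block was fitted beside the fit without it. Neither the labels nor the paper say that same-numbered libraries share a litter or batch. The pairs were read from the same values that the block then fits, so results with the block rest on that reading. The procedure was tested on simulated data.

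The members and lists were chosen with earlier results of these data known. Genes named are the 10 members, Kdf1, 6 further family genes, the 3 genes of lowest p in each of 4 pathway lists and the 3 genes nearest to each receptor. Any other gene was chosen after its values were seen.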

Additional observations from a re-analysis of the deposited data

How the results depend on the processing

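In none of the 16 alternatives to the edgeR fit did any of the 10 genes pass the criterion, and none had an adjusted p of at most 0.05 there, or in the 10 further fits without the filter made for Areg and Ereg, which were chosen after seeing the data. Areg and Ereg did not pass the filter of the main fit, so their values rest on fits without it. The closest was Areg without cKO replicate 3 (edgeR without the filter), with -6.47 and an adjusted p of 0.0517, where the remaining cKO libraries had 0 reads. The number of all genes past the criterion was 61. It was 980 in DESeq2, 860 with the replicate block, 103 without the filter on low counts, 31 with limma on log2(TPM + 1), 9 with scaling by library size alone, 7 with DESeq2's size factors, and 6 each with at least 10 counts in every library and with limma-voom, and between 1 and 465 with 1 library left out (465 without cKO replicate 3, 1 without each of 4 others). An unadjusted p of at most 0.05 gave 3468 genes, or 1372 with the fold change. Of the other pathway genes 0 passed, against 3 in DESeq2, 1 with the replicate block, 0 to 1 with a library left out, and 16 and 3 by an unadjusted p without and with the fold change.

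Directions turned when 1 library was left out. Erbb3 ran from -0.41 to 0.00 (0.000346, without control replicate 1), Hbegf from -0.37 to 0.08 (0.0821, without control replicate 3), Tgfa from -0.28 (without cKO replicate 3) to 0.60 (0.595), and Errfi1 from -0.20 (without cKO replicate 1) to 0.46, with 0.00 (-7.03e-05) without control replicate 2. Egf ran from -0.21 to 0.21 (without cKO replicate 1) and turned to 0.00358 with library size alone and to 0.00138 on log2(TPM + 1). The cause was not tested. Egfr, Erbb2, Btc and Nrg1 kept their direction in all 16 alternatives, and Areg and Ereg in the 10 run for them, all without the filter, with Egfr between 0.09 and 0.67 and Btc between -0.83 and -0.39. Among the members and the pathway genes named, the replicate block changed the call by adjusted p of Gab2, Cblb and Ccnd1 only. Outside them it did so for many genes, among them Amelx, Krt14, Prrx1, Col3a1 and Parm1. Over all genes, 77 had an adjusted p of at most 0.05 in edgeR without the block, and 1395 with it. Of the genes past the criterion, 20 were higher and 41 lower in edgeR, against 714 and 266 in DESeq2, and 588 and 272 with the block. The depth limits Areg and Ereg, with 33 and 30 reads in all control libraries.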
